A study of Mus musculus with 12 samples.

Results

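The 5 mature miRNAs described here belong to the miR-99/100 family (mmu-miR-99a-5p, MIMAT0000131; mmu-miR-99b-5p, MIMAT0000132; mmu-miR-100-5p, MIMAT0000655) and to the miR-125 family (mmu-miR-125a-5p, MIMAT0000135; mmu-miR-125b-5p, MIMAT0000136). They were chosen by accession, with earlier results of these data known, and are 5 of the 874 mature miRNAs with reads in the mouse count tables. Small RNA was sequenced from serum of 3 female athymic NCr nude mice (mice 1046, 1047 and 1069) that were 4 to 6 weeks old. Each mouse gave a serum before and a serum 2 weeks after injection of human SH-SY5Y cells under the renal capsule, and the RNA of each serum was split into an aliquot depleted of 5′ tRNA fragments and an undepleted aliquot. The 12 libraries therefore form 4 groups of 3: before depleted, before undepleted, after depleted and after undepleted. SH-SY5Y, the only line injected, is a long-established cell line from a human neuroblastoma. Athymic mice lack normal T cells. No mouse was followed without tumour cells, so the time point cannot be told apart from ageing or surgery.

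MicroRNAs are short RNAs that guide Argonaute proteins to messenger RNAs, mostly through the seed, a stretch near their 5′ end. miR-99 and miR-100 are known regulators of the mTOR kinase and of growth signalling, and miR-125 is the vertebrate relative of lin-4, the first miRNA described, known for roles in blood stem cells, neural differentiation and p53 signalling. In vertebrates the families lie together, each locus holding a miR-99/100 gene, a let-7 gene and a miR-125 gene. Serum miRNAs come from blood cells, vessels and many tissues, and their tissue of origin cannot be read from the sequence.

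The mature sequences are shown because they decide which members can be told apart by sequencing. They were taken from RefSeq (GRCm38.p6), are written 5′ to 3′, and carry the seed (bases 2 to 8) in capitals.

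miR-99a-5p: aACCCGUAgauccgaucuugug

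miR-99b-5p: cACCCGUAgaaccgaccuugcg

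miR-100-5p: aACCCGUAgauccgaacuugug

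miR-125a-5p: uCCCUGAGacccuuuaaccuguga

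miR-125b-5p: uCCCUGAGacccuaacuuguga

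The seed ACCCGUA was shared by the miR-99/100 members and by no other of the 1679 mature miRNAs of the reference table. The seed CCCUGAG was shared by miR-125a-5p, miR-125b-5p and 3 further miRNAs, among them miR-351-5p. Counted from the 5′ end, miR-99a-5p and miR-100-5p differed by U16A alone, so that a read ending before this position would match both. miR-99b-5p differed from miR-99a-5p at 4 positions (A1C, U11A, U16C and U21C). miR-125a-5p has 24 bases and differed from miR-125b-5p at 7 of the 22 positions compared.

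The genes form 3 loci on the plus strand (GRCm38, GENCODE M21). On chromosome 17, Mir99b (17830188 to 17830257), Mirlet7e (17830352 to 17830444) and Mir125a (17830812 to 17830879) lie within 692 bp of Spaca6, with Mir99b and Mirlet7e in an intron and Mir125a overlapping an exon. On chromosome 16, Mir99a (77598936 to 77599000), Mirlet7c-1 (77599657 to 77599750) and Mir125b-2 (77646273 to 77646343) span 47408 bp in introns of the noncoding gene Mir99ahg. On chromosome 9, Mir100 (41531425 to 41531504), Mirlet7a-2 (41536716 to 41536811) and Mir125b-1 (41581926 to 41582002) span 50578 bp in introns of the noncoding gene 3110039I08Rik. The mature miR-125b-5p is the same from chromosomes 9 and 16, so its counts cannot be split between these loci.

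The depleted libraries held between 938706 and 2271549 mouse-annotated counts, the undepleted ones between 21235 and 97183. All 5 members had reads in all 12 libraries. Together they took between 0.521% and 1.29% of the counts in depleted libraries, and between 0.380% and 0.716% in undepleted libraries. The highest share in each arm was that of the serum of mouse 1069 before injection. Because counts are relative within a library, fewer copies of a miRNA and more of the other miRNAs cannot be told apart.

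miR-125a-5p, from the chromosome 17 locus, had the most reads of the 5 members in all 12 libraries. In depleted libraries its raw counts were 4605, 6069 and 6956 before injection (mice 1046, 1047 and 1069) and 9380, 9394 and 11591 after injection. In undepleted libraries they were 290, 209 and 94 before and 245, 176 and 177 after injection. These counts are not scaled for library size.

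miR-99b-5p, the neighbour of miR-125a-5p, and miR-125b-5p, from the chromosome 9 and 16 loci, took the next places. miR-99b-5p had 1274, 1432 and 1778 raw counts in the depleted libraries before injection and 2575, 2509 and 3915 after it. miR-125b-5p had 1230, 1645 and 2610 raw counts in the same libraries before injection and 2460, 2439 and 3056 after it. miR-99b-5p was above miR-125b-5p in 2 of 6 libraries before injection and in 6 of 6 after it, counting both arms. In undepleted libraries after injection miR-99b-5p had 84, 87 and 80 reads and miR-125b-5p had 56, 35 and 42, without overlap, while in the other groups their raw counts overlapped.

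miR-99a-5p and miR-100-5p were the least abundant members. miR-99a-5p had 140, 194 and 379 raw counts in depleted libraries before injection and 308, 311 and 393 after it. miR-100-5p had 141, 142 and 341 before injection and 255, 196 and 232 after it. miR-99a-5p was above miR-100-5p in 5 of 6 depleted libraries but in 1 of 6 undepleted ones, where both had between 3 and 8 counts and the order was not detectable.

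**Figure D1:**
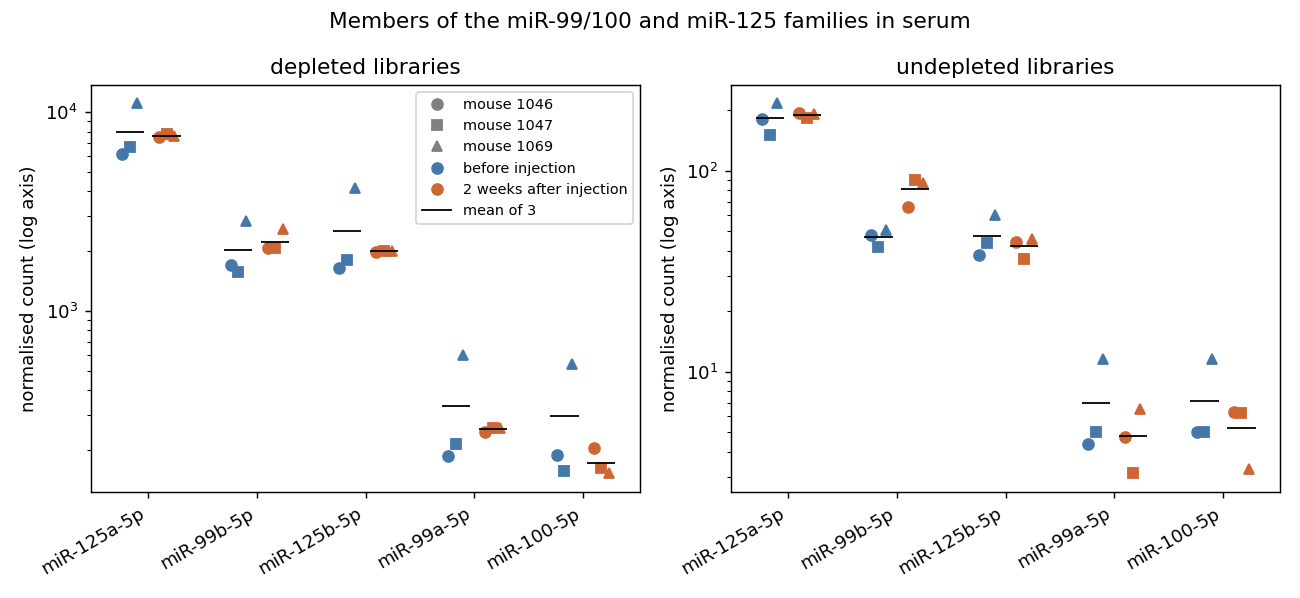
Normalised counts (log axis) of the 5 members in depleted libraries (left) and undepleted libraries (right), each arm scaled on its own, with a point per library, the shape giving the mouse and a bar at the mean of 3. In the depleted libraries the blue triangle, mouse 1069 before injection, lies above the other 5 libraries for every member.

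The first serum of mouse 1069 stood apart before any comparison was made. After scaling by DESeq2 size factors, its depleted library held 604 normalised counts of miR-99a-5p, against 187 to 259 in the other 5 depleted libraries. For miR-100-5p it held 544 normalised counts, against 153 to 205 in the others, and for miR-125b-5p 4161, against 1645 to 2018. The members of the chromosome 17 locus were also highest there. miR-125a-5p reached 11090, against 6159 to 7773, and miR-99b-5p reached 2835, against 1576 to 2579.

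Set against the mean of the other 2 depleted sera taken before injection, the excess was 3.02-fold for miR-99a-5p, 3.15-fold for miR-100-5p and 2.41-fold for miR-125b-5p. For both miR-99b-5p and miR-125a-5p it was 1.73-fold. The undepleted aliquot of this serum, the smallest library with 21235 counts, had its members in the same direction, from 1.13-fold for miR-99b-5p to 2.46-fold for miR-99a-5p. The values of miR-99a-5p and miR-100-5p rest on 5 reads each in this library. Against all 5 other undepleted libraries, 4 members were highest in it, but miR-99b-5p, at 50.7 normalised counts, was at rank 4 of 6. Of 213 miRNAs with a mean of at least 50 normalised counts, 66 (31.0%) were highest of the 6 depleted libraries in this serum. In 47 of these 213, members included, the excess was at least that of the lowest member. The highest place was therefore not particular to the members. In the undepleted libraries, 14 of 68 miRNAs with such a mean (20.6%) were highest in it. An even split would give each library the highest place in 1 of 6 miRNAs. The median fold over all these miRNAs was 0.94 depleted and 0.77 undepleted.

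Among related miRNAs this serum differed in both directions. let-7e-5p, encoded between Mir99b and Mir125a, held 148 normalised counts in it, against 43.0 to 52.7 in the other depleted libraries. miR-351-5p, which carries the miR-125 seed but lies outside these loci, held 440, against 1179 to 2160. miR-10a-5p, whose seed is close to that of miR-99/100, held 10271, against 30184 to 42297. miR-10b-5p, on the same list, went the other way, at 104127 against 73580 to 91683. let-7c-5p was also highest in this serum, at 3122 against 1282 to 2426, while let-7a-5p, at 2108, was at rank 3 of 6. These are values of a single serum and were not tested.

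**Figure D2:**
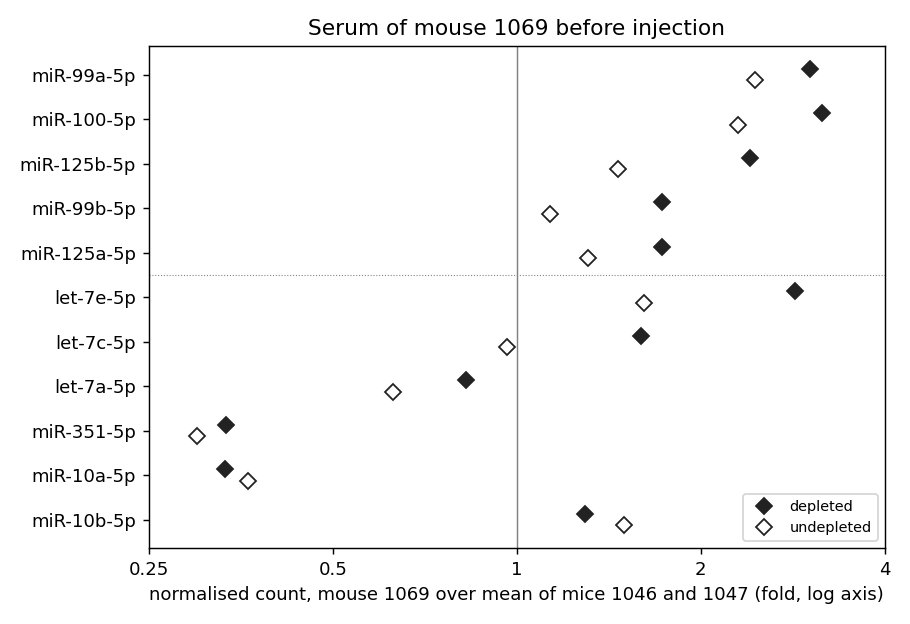
Normalised count in the serum of mouse 1069 before injection, divided by the mean of mice 1046 and 1047 before injection (log axis), for the 5 members above the dotted line and for related miRNAs below it, in depleted (filled) and undepleted (open) aliquots. Each point compares 1 library with 2 others. All 5 members lie to the right of 1, whereas miR-351-5p and miR-10a-5p lie between 0.299 and 0.363.

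Next, sera after injection were compared with sera before it, to see whether the members moved in mice that carried the xenograft. In depleted libraries the level of miR-125b-5p was 2539 ± 1407 normalised counts before and 2002 ± 24.0 after injection (SD, n = 3). miR-99a-5p was at 335 ± 234 before and 254 ± 6.34 after injection, and miR-100-5p at 296 ± 215 before and 173 ± 27.6 after injection (SD, n = 3). The groups overlapped for each of these, and the spread before injection was that of mouse 1069.

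The chromosome 17 members were at 7977 ± 2709 before and 7645 ± 123 after injection for miR-125a-5p, and at 2038 ± 693 before and 2240 ± 293 after injection for miR-99b-5p (SD, n = 3). DESeq2 called 0 of 5 members, with 0 at an unadjusted p under 0.05, at the thresholds used throughout (Benjamini-Hochberg adjusted p under 0.05 and at least 2-fold). With the same thresholds it called 10.6% of the 310 miRNAs tested. edgeR also called 0 of 5, with 1 at an unadjusted p under 0.05. The log2 fold changes ran from -0.66 (SE 0.37, DESeq2 adjusted p = 0.212) for miR-100-5p to 0.13 (SE 0.28, adjusted p = 0.813) for miR-99b-5p, with a median of -0.31 against -0.09 over all miRNAs tested.

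The direction rested on mouse 1069. In mice 1046 and 1047, each member's depleted library held more after injection than before it, by 0.05 to 0.40 on the log2 scale. In mouse 1069 each held less, from -1.83 for miR-100-5p to -0.14 for miR-99b-5p. Without mouse 1069, the DESeq2 log2 fold changes were 0.31 for miR-99a-5p, 0.088 for miR-100-5p, 0.25 for miR-125a-5p, 0.21 for miR-125b-5p and 0.33 for miR-99b-5p, none of them called.

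In undepleted libraries miR-99b-5p had the largest difference of the 3 members that could be tested. Its normalised counts were 48.0, 41.6 and 50.7 before injection and 66.2, 90.3 and 87.1 after it (mice 1046, 1047 and 1069). The groups did not overlap, and each of the 3 mice had the higher value after injection. The difference was 1.65-fold (log2 0.73, SE 0.30) and missed the threshold (DESeq2 adjusted p = 0.0698).

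For its neighbour miR-125a-5p the groups overlapped, with 181, 150 and 217 normalised counts before and 193, 183 and 193 after injection (log2 fold change 0.07, SE 0.25, DESeq2 adjusted p = 0.908). miR-125b-5p was at 38.0, 43.8 and 59.9 before and 44.1, 36.3 and 45.7 after injection (log2 fold change -0.11, SE 0.33, adjusted p = 0.906). miR-99a-5p and miR-100-5p were removed by the filter on low means and have no adjusted p. With 3 to 8 reads a library, changes of these 2 were not detectable at this depth. DESeq2 called 0 of 5 members in undepleted libraries, where 3 of 5 passed the filter, 1 was at an unadjusted p under 0.05 and 11.1% of the 108 miRNAs tested were called. edgeR called 0 of 5 as well, again with 1 at an unadjusted p under 0.05.

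The change of miR-99b-5p was 0.13 on the log2 scale in depleted libraries and 0.73 in undepleted libraries, and the difference between arms did not pass the test. The interaction was -0.57 (SE 0.38, DESeq2 adjusted p = 0.998). DESeq2 called 0 of 5 members and 0% of all 874 miRNAs in this test, with 3 miRNAs at an unadjusted p under 0.05, none of them a member. edgeR also called 0 of 874, with 11 at an unadjusted p under 0.05.

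The human tables counted nearly the same reads. Of 60 pairs of a member and a library, 56 had the same count in the mouse and the human row. The others differed by at most 2 reads, so the human rows are no independent evidence. Reads of the members from mouse cells and from the injected human cells therefore cannot be told apart in the sera after injection. In the human tables of the undepleted libraries, miR-99b-5p had a log2 fold change of 0.76 (DESeq2 adjusted p = 0.0495), under 2-fold as in the mouse tables.

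Markers of other sources differed between the time points in depleted libraries. The summed level of the 3 red blood cell miRNAs with counts (miR-451a, miR-144-3p and miR-16-5p) was 338511 to 570111 normalised counts before injection and 167096 to 231542 after it, and all 3 were called lower. The muscle sum was 6811 to 13930 before and 2746 to 3676 after injection. It was carried by miR-133a-3p, which was called lower, while miR-206-3p was at 2.68 to 9.91 before injection and at 0 after it. miR-486a-5p of the red blood cell list, and miR-1a-3p of the muscle list, were not listed in any mouse table used here.

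Of the liver list, miR-122-5p, its defining marker, was near 0, with 1.59 to 4.40 normalised counts before and 2.48 to 7.25 after injection in depleted libraries. The liver sum of 6615 to 14298 before and 15063 to 19826 after injection was therefore that of miR-192-5p, which other tissues also express and which was not called (log2 fold change 0.62, SE 0.29, DESeq2 adjusted p = 0.133). The sum of the white blood cell and platelet list was 56883 to 71236 before and 53263 to 60492 after injection, most of it miR-142a-5p (60072 ± 6006 before and 50198 ± 3374 after, SD, n = 3). The other listed members had differences of the opposite sign, with log2 fold changes of 0.35 for miR-150-5p (adjusted p = 0.401) and 0.53 for miR-223-3p (adjusted p = 0.159), and miR-142a-3p was not listed. Endothelium was represented by miR-126a-5p alone, at 8471 to 10306 before and 10396 to 10885 after injection (log2 fold change 0.16, adjusted p = 0.679), and miR-126a-3p was not listed. In the depleted aliquot of the first serum of mouse 1069, the red blood cell sum of 338511 was the lowest before injection. So were its muscle sum (6811), its liver sum (6615) and its white blood cell and platelet sum (56883). Its miR-126a-5p level, at 9791, was not the lowest. The part of these sources in the members' values was not tested.

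Ratios between members within a library need no scaling, and they set the chromosome 17 locus against the other loci directly. In depleted libraries the ratio of miR-99b-5p to miR-100-5p was 7.78 before and 12.9 after injection (geometric means, raw counts plus 0.5). The log2 ratio was 2.96 ± 0.51 before and 3.69 ± 0.37 after injection (SD, n = 3). It lay above the earlier serum's value in 3 of 3 mice, by 0.16 to 1.69, and the groups did not overlap. Without mouse 1069 the difference of 0.73 was 0.25. The exact permutation test gave p = 0.1, the smallest that 3 against 3 libraries allow, so none of these ratio tests could have reached 0.05. The adjusted p over the 8 tests was 0.16.

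In undepleted libraries the same ratio was 6.63 before and 14.5 after injection, a difference of 1.13 on the log2 scale, again higher in 3 of 3 mice (exact permutation test, p = 0.1, adjusted p = 0.16). This rests on 3 to 8 reads of miR-100-5p a library, and without mouse 1069 the difference was 0.46. The ratio of miR-99b-5p to miR-99a-5p, the chromosome 16 paralogue, went from 6.91 to 15.9 in undepleted libraries (difference 1.20 on the log2 scale, higher in 3 of 3 mice, exact permutation test, p = 0.1, adjusted p = 0.16). These undepleted values rest on 3 to 7 reads of miR-99a-5p a library. In depleted libraries the ratio went from 6.79 to 8.75 with overlapping groups, higher in 2 of 3 mice (exact permutation test, p = 0.3, adjusted p = 0.3). Without mouse 1069, whose ratio before injection was 4.69, the log2 difference of 0.37 in depleted libraries was 0.0048.

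For the miR-125 family the ratio of miR-125a-5p to miR-125b-5p was close in all depleted libraries but one. After injection it was between 3.79 and 3.85, and before injection it was between 2.66 and 3.74, with the lowest value in mouse 1069. The log2 ratio was 1.73 ± 0.28 before and 1.93 ± 0.01 after injection (SD, n = 3), higher in 3 of 3 mice by 0.03 to 0.51 (exact permutation test, p = 0.1, adjusted p = 0.16). Without mouse 1069 the difference of 0.20 was 0.044. In undepleted libraries the groups overlapped (exact permutation test, p = 0.3, adjusted p = 0.3), with a log2 difference of 0.22 and 2 of 3 mice higher.

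Within the chromosome 17 locus, the ratio of miR-99b-5p to miR-125a-5p separated the time points in undepleted libraries. It was 0.261 before and 0.426 after injection, a log2 difference of 0.71 that was positive in 3 of 3 mice by 0.37 to 0.93 (exact permutation test, p = 0.1, adjusted p = 0.16). In depleted libraries it was 0.256 before and 0.291 after injection, higher in 2 of 3 mice, with overlapping groups (exact permutation test, p = 0.3, adjusted p = 0.3), and without mouse 1069 the log2 difference of 0.19 was 0.084. The ratios share members and libraries and are not separate evidence.

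**Figure D3:**
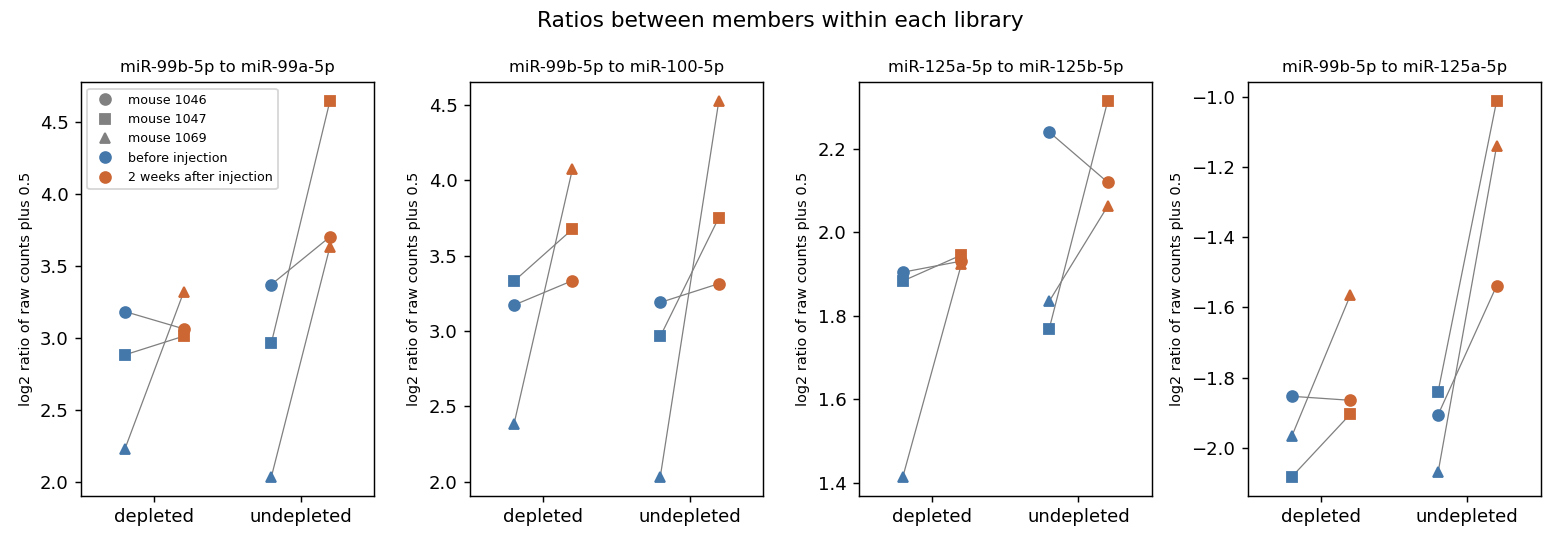
Log2 ratios of raw counts plus 0.5 between 2 members in each library, in depleted and undepleted aliquots, before (blue) and after injection (orange), with lines joining the sera of a mouse. The steepest lines for miR-99b-5p to miR-100-5p belong to mouse 1069, and the 3 depleted ratios of miR-125a-5p to miR-125b-5p after injection lie almost on each other.

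Summed, miR-99b-5p and miR-125a-5p made up 77.0 ± 4.01% of the reads of the 5 members in depleted libraries before injection and 80.3 ± 0.507% after it (SD, n = 3). In undepleted libraries they made up 79.1 ± 3.38% before and 83.9 ± 1.65% after injection (SD, n = 3). The lowest depleted value was 72.4% (95% Wilson interval 71.6% to 73.2%) in mouse 1069 before injection, and the other 5 depleted libraries lay between 79.1% (78.3% to 79.9%) and 80.8% (80.3% to 81.4%). Intervals cover counting error only.

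Then the aliquots of each serum were compared to see whether the depletion shifted the members relative to other miRNAs. On the scale of all 12 libraries, miR-125b-5p was at 205 to 327 normalised counts (median 244) in the 6 undepleted and at 291 to 696 (median 372) in the 6 depleted libraries. miR-125a-5p was at 813 to 1184 (median 1063) undepleted and at 1091 to 1855 (median 1424) depleted. The depleted aliquot was higher in 6 of 6 sera for each, by 0.36 to 1.09 for miR-125b-5p and by 0.13 to 0.65 for miR-125a-5p on the log2 scale, while the ranges of the arms overlapped.

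The fold was 1.63 for miR-125b-5p (log2 0.71, SE 0.23, DESeq2 adjusted p = 0.0211) and 1.35 for miR-125a-5p (log2 0.44, SE 0.15, adjusted p = 0.0327). With the 2-fold limit DESeq2 called 0 of 5 members, with 3 at an unadjusted p under 0.05, and 8.36% of the 383 miRNAs tested. On the adjusted p alone, 2 of 5 members passed, both higher in depleted aliquots, beside 14.4% of all miRNAs tested. With 4 sera in place of 6 the pass was lost without mouse 1046 (adjusted p = 0.307 for miR-125b-5p and 0.497 for miR-125a-5p) or without mouse 1047 (0.167 and 0.293). The log2 fold changes stayed at 0.53 to 0.75 for miR-125b-5p and 0.34 to 0.50 for miR-125a-5p when each mouse was left out. These fits did not pair the 2 aliquots of a serum. With a block on serum over all 6 sera, both members had a smaller adjusted p and stayed under 2-fold, as given below.

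miR-99a-5p was at 17.6 to 63.0 normalised counts (median 27.0) undepleted, from 3 to 7 reads each, and at 33.2 to 101 (median 47.0) depleted. It was higher in the depleted aliquot in 6 of 6 sera, with a log2 fold change of 0.77 (SE 0.38, DESeq2 adjusted p = 0.201). edgeR called 1 of 5 members, miR-99a-5p, at a log2 fold change of 1.07 (adjusted p = 0.0224), and so did DESeq2 with TMM factors (1.01, adjusted p = 0.0383). On the adjusted p alone, 3 of 5 members passed with edgeR, the smallest adjusted p being 0.000357. These scalings moved the median of all miRNAs by 0.33 and 0.26 on the log2 scale.

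The other 2 members showed no call under any setting tried. miR-99b-5p was higher in the depleted aliquot in 4 of 6 sera (log2 fold change 0.15, SE 0.20, DESeq2 adjusted p = 0.779), and miR-100-5p in 4 of 6 (0.31, SE 0.39, adjusted p = 0.762). All 5 fitted fold changes were positive, with a median of 0.44 against -0.04 over all miRNAs tested. Under each scaling tried all 5 also lay above the median of all miRNAs. The 5 values come from the same libraries and are not separate evidence. Those of miR-99a-5p and miR-100-5p rest on 3 to 8 reads in each undepleted library.

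For the ratios, none of the 4 tests over the 6 sera passed after adjustment. The ratio of miR-125a-5p to miR-125b-5p was lower in the depleted aliquot in 5 of 6 sera, by -0.22 ± 0.20 on the log2 scale (SD over 6 sera), with p = 0.0625 by an exact sign-flip permutation test and an adjusted p of 0.167. That of miR-99b-5p to miR-99a-5p was lower in 5 of 6 sera (-0.44 ± 0.64, exact sign-flip permutation test, p = 0.125, adjusted p = 0.167), and that of miR-99b-5p to miR-125a-5p in 4 of 6 (-0.29 ± 0.36, p = 0.125, adjusted p = 0.167). Undepleted libraries held only 3 to 7 reads of miR-99a-5p. The serum of mouse 1047 after injection, with 3 of these reads, had the lowest difference of the ratio to miR-99a-5p, at -1.63. The mean difference of that ratio changed sign with a pseudocount of 5. miR-99b-5p to miR-100-5p differed by 0.03 ± 0.30, with 3 of 6 sera in each direction (exact sign-flip permutation test, p = 0.938).

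The let-7 genes of the same loci were examined beside their neighbours, without a test of the difference between them. let-7c-5p, encoded beside Mir99a and also elsewhere in the genome, fell on depletion from 1034 to 1355 normalised counts (median 1111) to 248 to 522 (median 307), without overlap (log2 fold change -1.74, SE 0.19, DESeq2 adjusted p = 3.21e-19). let-7e-5p was at 12.5 to 37.8 undepleted and 8.11 to 24.8 depleted (-0.98, SE 0.40, adjusted p = 0.0928). Its undepleted values rest on 2 to 8 reads a library. let-7a-5p was at 100.3 to 264 undepleted and 210.2 to 478 depleted, a difference under 2-fold (0.56, SE 0.20, adjusted p = 0.0327). let-7 members are near-identical in sequence, and how reads matching several loci were counted is not stated.

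Of the 12 related miRNAs (the let-7 partners, the other strands of the hairpins, and miRNAs with the same or a close seed), 1 was called lower and 0 higher on depletion, out of 11 that passed the filter. After injection, 0 of 10 were called in depleted libraries and 1 of 5, higher, in undepleted libraries. Over all miRNAs tested, 8.36% were called on depletion, and 10.6% in depleted and 11.1% in undepleted libraries after injection. The related miRNA called higher was miR-351-5p. It had 29.3, 32.3 and 9.22 normalised counts before injection (mice 1046, 1047 and 1069) and 70.2, 63.3 and 75.1 after it. The value of 9.22 rests on 4 reads. The groups did not overlap, and the difference was 2.38-fold (log2 1.25, SE 0.36, DESeq2 adjusted p = 0.00347, higher in 3 of 3 mice). Without mouse 1069 it was under 2-fold (log2 0.90, adjusted p = 0.0470), and without mouse 1046 or 1047 the adjusted p was 0.176 and 0.283.

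In depleted libraries miR-351-5p was at 1450, 1179 and 440 before and 1717, 2160 and 1995 after injection (log2 fold change 0.83, SE 0.33, DESeq2 adjusted p = 0.0677). let-7a-5p was at 2250, 2846 and 2108 before and 1448, 1323 and 1085 after injection, without overlap but under 2-fold (-0.85, SE 0.25, adjusted p = 0.00704). Neither let-7e-5p (-0.63, SE 0.40, adjusted p = 0.276) nor let-7c-5p (-0.57, SE 0.29, adjusted p = 0.176) passed the test in these libraries. In undepleted libraries let-7c-5p (0.06, SE 0.24, adjusted p = 0.908) and let-7a-5p (-0.29, SE 0.38, adjusted p = 0.648) did not pass either, and let-7e-5p was too low to be tested.

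**Figure D4:**
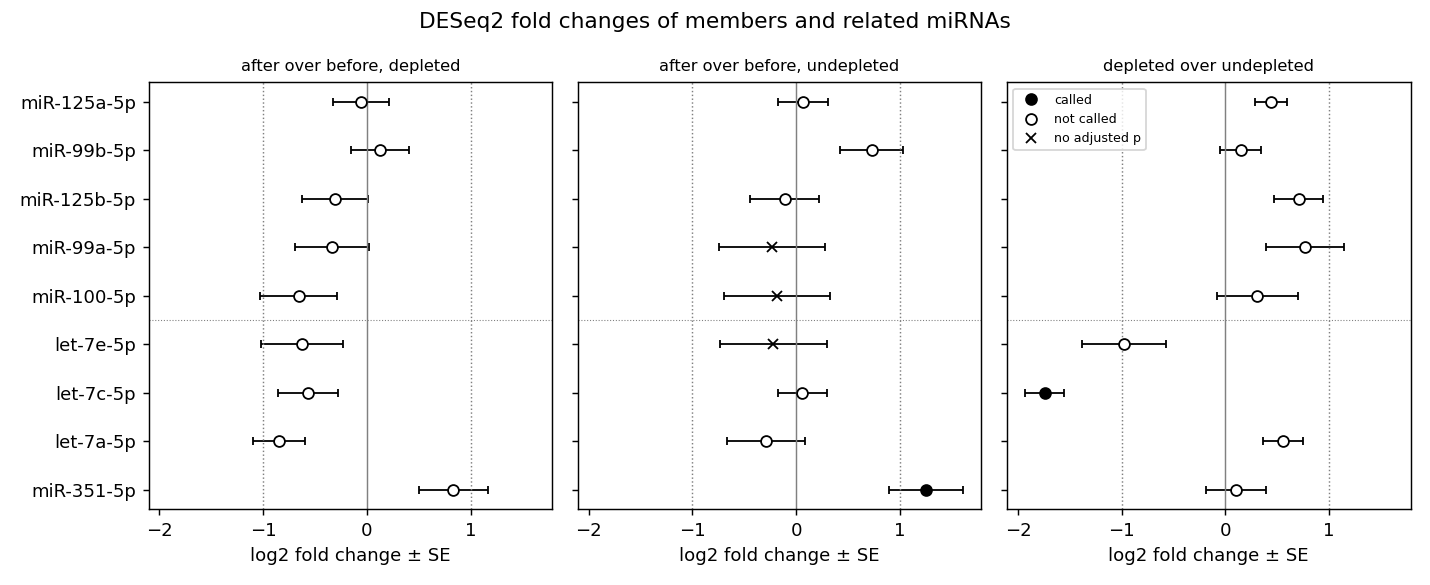
DESeq2 log2 fold changes with standard errors for the 5 members (above the dotted line) and 4 related miRNAs, after over before injection in depleted and undepleted libraries and depleted over undepleted, with dotted verticals at the 2-fold limits. Filled points passed both limits, which was so for miR-351-5p after injection in undepleted libraries and for let-7c-5p on depletion, and crosses had no adjusted p.

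The opposite strands of the hairpins separate the miR-125b genes, whose 5p strands are the same. They are printed because they differ where the 5p strands do not.

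miR-125b-1-3p (chromosome 9): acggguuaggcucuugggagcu

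miR-125b-2-3p (chromosome 16): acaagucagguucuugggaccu

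In depleted libraries miR-125b-2-3p had 107, 155 and 184 reads before injection (mice 1046, 1047 and 1069) and 257, 205 and 262 after it. miR-125b-1-3p had 18, 35 and 46 before and 38, 43 and 59 after injection. In these libraries the chromosome 16 strand therefore made up 82.4 ± 2.89% of the 3p reads before and 83.8 ± 2.92% after injection (SD, n = 3), the highest library being at 87.1% (95% exact interval 82.8% to 90.7%). The share of the 3p strands need not be that of the 5p strands.

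In undepleted libraries the 3p reads of miR-125b were few, 11 and 11 over the 3 libraries before injection and 8 and 11 after it for the chromosome 9 and 16 strands. The chromosome 16 share there was 45.7 ± 10.9% before and 69.2 ± 31.3% after injection (SD, n = 3). On depletion miR-125b-2-3p had a log2 fold change of 0.85 (SE 0.38, DESeq2 adjusted p = 0.131) and miR-125b-1-3p one of -1.09 (SE 0.44, adjusted p = 0.0858), so neither passed the test.

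Over the 6 depleted libraries, the 3p strand made up 9.49% of the reads of the miR-125b hairpins (95% Wilson interval 9.03% to 9.97%) and 7.85% of those of mir-99a (6.72% to 9.16%). It was 0.853% for mir-99b (0.712% to 1.02%) and 0.0895% for mir-125a (0.0665% to 0.121%), both of the chromosome 17 locus. Single libraries ran from 8.10% to 10.7% for the miR-125b hairpins and from 1.27% to 10.8% for mir-99a. They ran from 0.280% to 1.06% for mir-99b and from 0.0431% to 0.138% for mir-125a. For mir-100 there was no 3p read beside 1307 5p reads, which allows a share of up to 0.230% (3 reads) in depleted libraries. The undepleted libraries held 1 3p read of mir-100 beside 37 5p reads. The shares with intervals are of pooled reads, the intervals cover counting error only, and no test was made.

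The members followed each other across the 6 depleted libraries, which share the outlying serum of mouse 1069. Pearson's r of log2 normalised counts plus 1 was 0.997 between miR-99a-5p and miR-125b-5p and 0.974 between miR-125a-5p and miR-125b-5p, and lowest, at 0.601, between miR-99b-5p and miR-100-5p. By rank, miR-100-5p was far from the others, with Spearman's rho from 0.143 to 0.257, although its r with miR-125b-5p was 0.929. Of 208 other miRNAs with a mean of at least 50 normalised counts, MIMAT0000162 was the closest to miR-99a-5p (r = 0.973), miR-125a-5p (r = 0.946) and miR-125b-5p (r = 0.973). MIMAT0017011 was the closest to miR-99b-5p (r = 0.957) and MIMAT0004828 to miR-100-5p (r = 0.992), and the tables pair no names with these accessions. These values describe 6 libraries and were not tested.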

How the data were processed

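Per the labels, RNA from 50 μl of serum was divided into depleted and undepleted aliquots, and TruSeq small RNA libraries were amplified for 15 cycles. The authors trimmed reads with Cutadapt 1.8.1, mapped them without mismatches with Bowtie 1.1.2, and deposited raw read counts per mature miRNA, in a mouse (GRCm38) and a human (GRCh37) table for each library. The counts are not normalised, and an unlisted miRNA was taken as 0. How reads with several matches were counted is not given in the sources used here. Names of non-member miRNAs follow miRBase pairing with the accessions, since the tables list accessions alone.

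All miRNAs of a table were fitted with DESeq2 1.42.0 (R 4.3.3), with median-of-ratios size factors and the prior on fold changes, on time point within each arm, or on time point and depletion over all 12 mouse tables. The interaction fit had no prior, and its calls needed the adjusted p only. The alternatives were edgeR 4.0.16, TMM or total-count scaling, no prior, keeping miRNAs with 4 or more counts in 3 or more libraries, no fold limit, a replicate block and leaving out each mouse. Scripts were tested on simulated data. Ratios were tested by exact permutation in SciPy 1.17.1. Values named in the text are those of the 5 members, of the let-7 partners, of related miRNAs past the threshold and of listed markers. Values of miR-10a-5p, miR-10b-5p and the 3p strands of the hairpins were added. The members and lists were chosen with earlier results of these data known. Sera of a mouse and aliquots of a serum are paired by the labels. Deviations from the group means correlated by 0.43 to 0.62 between aliquots of a serum and by -0.42 to 0.10 between sera of a mouse. The 3 mice are separate animals, while aliquots of a serum are technical. Depth was 21235 to 2271549 mouse counts a library.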

Additional observations from a re-analysis of the deposited data

Results flagged for a closer look

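miR-99a-5p stood out in the second serum of mouse 1047, whose depleted aliquot was 1.46 above the undepleted one on the log2 scale, far from the other 5 sera (0.40 to 0.76). The undepleted value rests on 3 reads. Chance marks about 1 in 20 such groups of sera.

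In the human tables, which the comparisons above used for the 5p rows alone, hsa-miR-125b-2-3p (MIMAT0004603) had no reads in the 6 libraries before injection. After injection it had 3, 3 and 30 reads in the depleted libraries of mice 1046, 1047 and 1069 and 0, 0 and 3 in the undepleted ones. The 30 reads are 9.45 ppm of the human-annotated counts of that library (95% Wilson interval 6.62 to 13.5 ppm). Before injection, a count of 0 allows up to 0.778 to 1.73 ppm in depleted libraries and up to 15.9 to 87.0 ppm in undepleted ones, taking 3 counts as the limit. This miRNA was named after its values were seen, and the source of these reads was not tested.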

How the results depend on the processing

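0 of 5 members were called after injection in either arm, or in the interaction, under all alternatives run. In the depletion comparison, where 0 were called, edgeR called 1 and TMM factors in DESeq2 called 1. The adjusted p alone passed 2 with DESeq2 and 3 with edgeR. Leaving out each mouse moved the depleted changes after injection across 0, from -0.54 to 0.31 for miR-99a-5p, -0.93 to 0.088 for miR-100-5p, -0.17 to 0.25 for miR-125a-5p and -0.48 to 0.21 for miR-125b-5p (log2 fold changes, positive without mouse 1069). miR-100-5p ran from -0.32 to 0.11 in undepleted libraries, and miR-99b-5p on depletion from -0.0020 to 0.28. miR-125a-5p after injection in depleted libraries was 0.0042 with edgeR, 0.0039 with TMM factors and 0.14 with total-count scaling, which moved the median of all miRNAs by 0.21. The adjusted p of miR-99b-5p after injection in undepleted libraries ran from 0.0233 (total-count scaling) to 0.998 (without mouse 1047), and that of miR-125a-5p on depletion was 0.0581 with total-count scaling (both DESeq2). The interaction turned to -0.090 for miR-99a-5p with edgeR.

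With the replicate block, the interaction turned to 0.028 for miR-125a-5p and 0.059 for miR-125b-5p. The block on serum gave adjusted p = 6.23e-06 for miR-125a-5p and 2.80e-05 for miR-125b-5p on depletion (DESeq2), both under 2-fold, and changed no member's call. Paired by mouse, ratios after against before had exact sign-flip p-values of 0.25 to 0.5, 0.25 being the smallest that 3 pairs allow.

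The depletion ratio of miR-99b-5p to miR-99a-5p turned to 0.24 with a pseudocount of 5. That of miR-99b-5p to miR-100-5p turned to -0.077 without a pseudocount and ran from -0.025 to 0.073 without each mouse. The cause was not tested. miR-351-5p in undepleted libraries was called under no omission of a mouse.

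Counts of all miRNAs called after injection went from 33 to 11 without mouse 1047, 19 without mouse 1069 and 52 on the adjusted p alone in depleted libraries, and from 12 to 1, 7 and 21 in undepleted libraries. On depletion, 32 became 19 without mouse 1046 and 55 on the adjusted p alone. Undepleted libraries limit miR-99a-5p and miR-100-5p, with 3 to 8 reads each.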
